A study of Mus musculus with 36 samples.

Results

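Described here are 9 genes of acute inflammation in mouse bone cells that lacked the microRNA gene Mir324 and in their wild-type controls. They are Il1a and Il1b, which encode the IL-1 ligands IL-1α and IL-1β, Il1rn, which encodes the IL-1 receptor antagonist, and the cytokine genes Il6, Il10, Il18 and Tnf. The other members are Ptgs2, which encodes the inducible cyclooxygenase COX-2, and Nos2, which encodes the inducible nitric oxide synthase iNOS. The members were chosen by symbol, and all 9 were found among the 30205 genes to which the deposited transcripts could be assigned.

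The data are 36 RNA-seq libraries in 6 groups of 6. Cells came from mice aged 20 weeks, either wild-type controls (WT) or Mir324-null mice (null). Bone marrow macrophages (BMM), the precursors of osteoclasts, were cultured in 30 ng/mL of M-CSF, their survival factor, for 5 days. Osteoclast cultures (OC) received M-CSF at 30 ng/mL and, in addition, RANK-L, the ligand that drives macrophages to become bone-resorbing osteoclasts, at 50 ng/mL for 5 days. Osteoblast cultures (OB), bone-forming cells grown out of bone fragments, were held for 18 days in osteogenic medium with β-glycerophosphate and ascorbic acid. No group received a bacterial product or another inflammatory stimulus according to the labels. The labels do not say how the null allele was made or whether the 6 libraries of a group came from separate animals, so p-values measure only the spread between libraries.

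IL-1α, IL-1β, TNF and IL-6 are made by activated macrophages and, in bone, act on both osteoclast precursors and osteoblasts, where they can favour bone resorption. IL-1 and TNF signal through NF-kB and MAP kinases and induce COX-2, whose product is converted to prostaglandin E2, and iNOS, which makes nitric oxide from arginine. IL-10 and the IL-1 receptor antagonist restrain these responses, the first through STAT3 and the second by occupying the IL-1 receptor without signalling.

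The libraries held 14118972 to 26347581 estimated counts each, so that 3 counts, taken as the detection floor, equalled 0.114 to 0.212 CPM in an unscaled library. Levels are given as CPM, counts per 1000000 of the library size after TMM scaling of all 36 libraries. The labelled cell types were checked against their markers. The 9 osteoclast markers summed to 29550 to 32090 CPM in WT OC and to 349 to 720 CPM in null OC, where the calcitonin receptor gene Calcr was at 0 in all 6 libraries, so the null libraries labelled osteoclasts lacked the osteoclast profile. The 6 macrophage markers summed to 6491 to 7172 CPM in BMM and 4566 to 4997 in OC of WT mice, and to 11410 to 13020 and 9859 to 13070 CPM in the null. Most of the higher sum in the null was Adgre1, with means of 1888 CPM in WT and 7458 in null BMM and 986 and 6667 in OC, followed by Cd14 (503 and 1058 in BMM, 164 and 903 in OC). Cd68 was lower in the null in both cultures (2584 and 1787 CPM in BMM, 2185 and 1805 in OC), as were Mertk (102 and 45.2) and Fcgr1 (58.4 and 22.2) in BMM, while these last were higher in null OC (15.3 and 42.9, 5.50 and 19.1). The OB libraries held osteoblast markers at 54010 to 78110 CPM (WT) and 96250 to 115800 CPM (null), but also macrophage markers at 2035 to 2392 and 1724 to 1886 CPM and osteoclast markers at 3960 to 5067 and 4815 to 7321 CPM. In such bulk samples fewer cells of a type and less RNA per cell cannot be told apart. Null OC replicate 6 correlated least with its own group (median r = 0.9612 of log values across genes), followed by null OB replicate 6 (0.9746). Without the first, 6 members were again called between genotypes in OC, and without the second 3 in place of 2 in OB, as given beside Il10. T cell, B cell, mast cell and dendritic cell markers each summed to at most 6.25 CPM in any library. The 3 endothelial markers summed to 75.7 to 314 CPM, most of it Pecam1. In BMM, Pecam1 had means of 141 CPM in WT and 202 in null, and Kdr of 15.3 and 1.92.

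In macrophages and in RANK-L cultures Il1a, Il1b, Il10, Tnf and Ptgs2 were higher in the null, and in RANK-L cultures Nos2 as well. In osteoblast cultures these genes did not pass the test. Il1rn was higher in the null in macrophages and in osteoblast cultures. Il18 was lower in the null in both, though in osteoblast cultures not under every setting. In BMM 7 of the 9 genes passed the filter on low counts, and all 7 differed between genotypes, 6 higher and 1 lower in the null (edgeR quasi-likelihood test, Benjamini-Hochberg adjusted p under 0.05). Of all 11925 genes tested in BMM 52.3% were called, 27% higher and 25.4% lower. In OC 8 members were tested and 6 were called, all 6 higher, where 65.6% of 12121 genes were called, 32.4% higher and 33.1% lower. In OB all 9 were tested and 2 were called, 1 higher and 1 lower, where 32.5% of 13607 genes were called, 15.5% higher and 16.9% lower. The shares of members called in OC and OB lay near those of all genes, and a member that passed the filter through the null group alone had to differ, so nothing further is read from these counts.

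**Figure D1:**
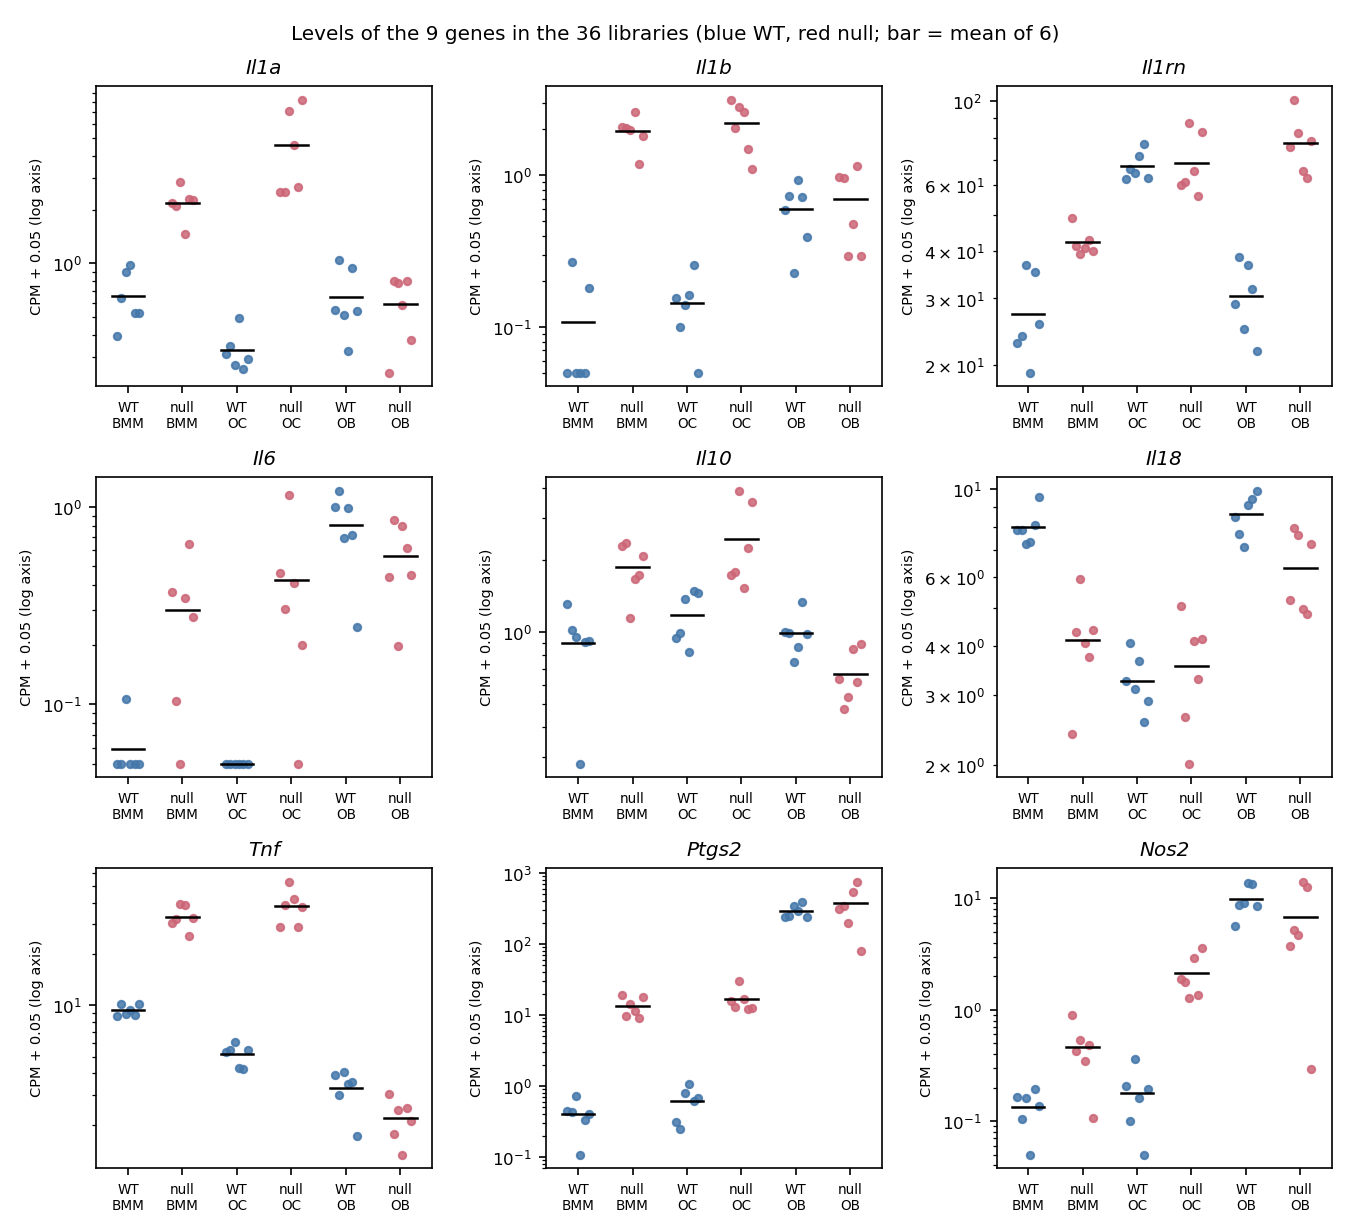
Level of each of the 9 genes in every library, as CPM + 0.05 on a log axis, by group (x axis; blue WT, red null; black bar, mean of 6 libraries). For Tnf and Ptgs2 the null BMM and null OC points lie wholly above the matching WT points, while in OB the genotypes overlap.

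**Figure D2:**
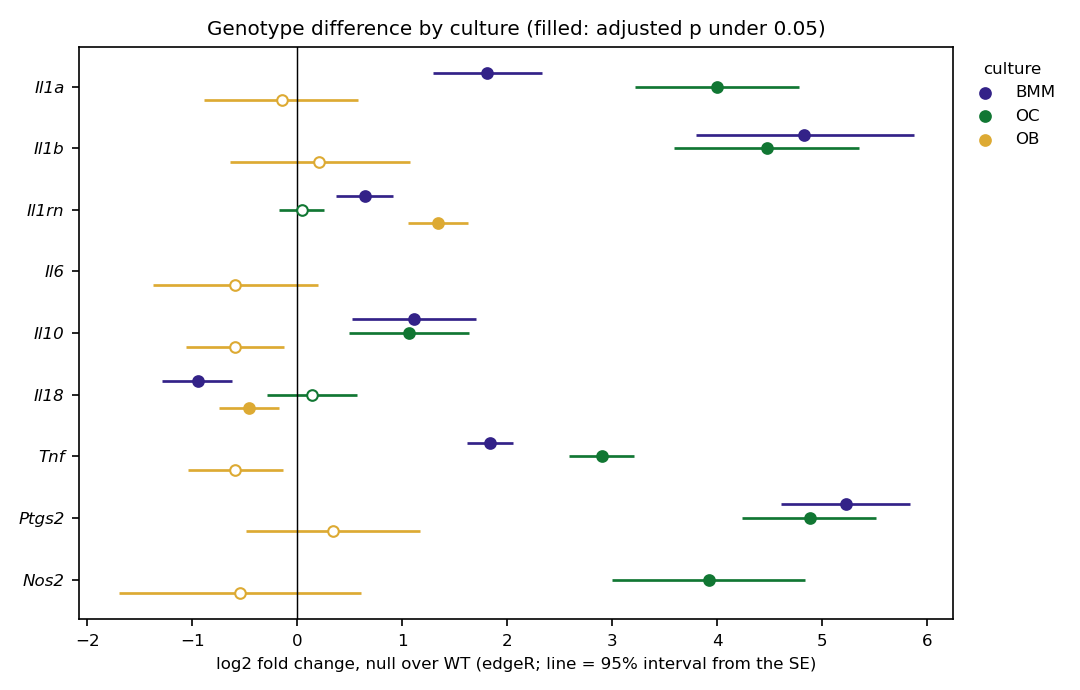
Log2 fold change of null over WT (x axis) for each gene (y axis) in BMM, OC and OB, with a line for the 95% interval from the edgeR standard error and a filled point where the adjusted p was under 0.05. Il6 and Nos2 in BMM and Il6 in OC were below the count filter and have no point.

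The members lie on 6 chromosomes (GRCm38, GENCODE M21), and Il1a, Il1b and Il1rn share chromosome 2. Il1a spans chr2:129299610-129309972 and Il1b chr2:129364570-129371139, both on the minus strand, and Il1rn spans chr2:24336853-24351494 on the plus strand. Il6 lies at chr5:30013114-30019981, Il10 at chr1:131019845-131024974, Il18 at chr9:50554827-50581840 and Nos2 at chr11:78920787-78960254, all on the plus strand. Ptgs2 lies at chr1:150100031-150108227 on the plus strand and Tnf at chr17:35199381-35202007 on the minus strand. An annotated gene on the other strand overlaps Il1a (Gm14023), Il1b (Il1bos) and Il18 (Bco2 and Tex12). Strand use in the counting is not given in the sources used here, which leaves these 3 members uncertain to that extent.

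Promoter windows from RefSeq (GRCm38.p6) were matched for 7 of the 9 members. The 60 bases before the start are shown for the 5 of these genes with the largest ratio of null to WT in BMM or OC, because their core promoters can be compared side by side. Capitals mark a TATAAA box read on the gene's strand, an NF-kB motif or the AP-1 motif TGANTCA. The windows are chr2:129309973-129310032 (Il1a, minus strand), chr2:129371140-129371199 (Il1b, minus strand), chr17:35202008-35202067 (Tnf, minus strand), chr5:30013054-30013113 (Il6, plus strand) and chr1:150099971-150100030 (Ptgs2, plus strand).
Il1a: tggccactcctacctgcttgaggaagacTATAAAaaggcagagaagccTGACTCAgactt
Il1b: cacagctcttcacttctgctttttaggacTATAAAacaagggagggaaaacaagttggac
Tnf: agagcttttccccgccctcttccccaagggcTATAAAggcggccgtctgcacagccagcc
Il6: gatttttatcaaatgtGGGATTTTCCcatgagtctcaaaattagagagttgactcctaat
Ptgs2: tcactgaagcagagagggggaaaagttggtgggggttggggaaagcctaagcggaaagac

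Il1a, Il1b and Tnf each carried the letters TATAAA, from 32, 31 and 29 bases before the start. Over the full 250 bases before the start, that word stood on the gene's strand in 7.6% of 32817 RefSeq windows. An NF-kB motif stood in the Il6 window from 44 to 35 bases before the start, and 3.9% of windows held one on either strand. TGANTCA stood in 6.75% of windows and was found 12 bases before the Il1a start, 249 before the Il6 start and 141 before the upstream Il1rn start. TGACGTCA (a cyclic AMP response element) and TTGCNNNAA (a C/EBP motif), searched on both strands, stood in 1.55% and 8.29% of windows and in none of the members' windows. These matches are descriptions of letters, and binding was not measured.

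Il1a, which encodes the IL-1 ligand that is active without cleavage, was higher in null macrophages and further apart in RANK-L cultures. Il1a ranged from 0.343 to 0.928 CPM in WT BMM (median 0.537) and from 1.42 to 2.79 in null BMM (median 2.17). It ranged from 0.206 to 0.445 CPM in WT OC (median 0.253) and from 2.44 to 8.18 in null OC (median 3.59). In neither culture did the genotypes overlap. It rose by 1.81 (log2, SE 0.27) in BMM and by 4.0 (SE 0.40) in OC, with edgeR adjusted p of 3.14e-05 and 1.46e-07. In both cultures the WT libraries of Il1a alone would not have passed the count filter, so neither p-value adds anything to the ranges. In OB, Il1a stood at 0.273 to 0.997 CPM (median 0.494) in WT and 0.195 to 0.752 (median 0.633) in null, and the ranges overlapped (log2 fold change -0.15, 95% interval -0.89 to 0.58).

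Il1b, which encodes the IL-1 ligand that caspase-1 cleaves to its active form, was almost absent from WT macrophage cultures. WT BMM held 7 counts in all 6 libraries together and WT OC 11, or 0 to 0.216 and 0 to 0.206 CPM (medians 0 and 0.0969). Null BMM held 211 counts, 1.14 to 2.54 CPM (median 1.96), and null OC 246 counts, 1.05 to 3.09 CPM (median 2.27). Every null library exceeded every WT library of the same culture. On the log2 scale it rose by 4.83 in BMM (SE 0.53, edgeR adjusted p = 1.42e-06) and by 4.47 in OC (SE 0.45, edgeR adjusted p = 1.69e-07). In both cultures Il1b passed the count filter through the null libraries alone, so these p-values add nothing to the ranges. Per length, Il1b stood at means of 2.24 TPM in null BMM and 2.47 in null OC. Beside these, Tnf stood at 29.2 and 35.2 TPM and Il10 at 2.12 and 2.85. In OB, Il1b lay at 0.175 to 0.874 CPM (median 0.607) in WT and 0.242 to 1.09 (median 0.670) in null, with overlapping ranges and a log2 fold change of 0.21 (95% interval -0.64 to 1.07).

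Il1rn, the antagonist of both ligands, differed most between genotypes in osteoblast cultures. These cultures also held macrophage and osteoclast markers, as given above, whose part in the Il1rn difference was not tested. Il1rn stood at 21.7 to 38.6 CPM in WT OB (median 30.4) and at 62.7 to 101 CPM in null OB (median 76.9), with no overlap. The null was higher by 1.34 in log2 units (SE 0.15, edgeR adjusted p = 3.41e-05). In BMM it was 19.0 to 36.8 CPM in WT (median 24.7) and 39.2 to 48.9 in null (median 41.0), also without overlap, and the null was higher by 0.64 in log2 units (SE 0.14, edgeR adjusted p = 0.00125). In OC the ranges were 62.1 to 76.8 in WT (median 65.2) and 56.0 to 87.3 in null (median 63.0). There the ranges overlapped, and the log2 fold change of 0.04 (95% interval -0.17 to 0.25) did not pass the test. On deposited TPM, which corrects for transcript length, the null OC mean lay below the WT mean (51.9 against 63.4 TPM), a log2 difference of -0.29.

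Il1rn is read from more than 1 start, and the starts were compared after the gene's values had been seen. Transcripts from the upstream start (first exon of Il1rn-204 at chr2:24336853-24336992) encode proteins of 159 and 52 residues, and 1 keeps an intron. Transcripts from the downstream start (first exon of Il1rn-201 at chr2:24345310-24345571) include the 178-residue form. The 60 bases before 1 RefSeq start of each class are shown because the share of the 2 classes differed between cultures. The downstream one lies at the first exon of Il1rn-202, which begins at base 24345288. A further RefSeq start lies inside the first exon of Il1rn-201, and the window before it is not shown. The windows lie at chr2:24336800-24336859 and chr2:24345231-24345290, both on the plus strand, and hold none of the motifs above, so no letter is in capitals.
Il1rn upstream start: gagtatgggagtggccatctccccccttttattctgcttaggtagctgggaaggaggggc
Il1rn downstream start: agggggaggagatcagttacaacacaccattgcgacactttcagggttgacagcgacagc

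The upstream start took 18.9% ± 3.64 (SD, n = 6) of Il1rn TPM in WT BMM, against 16.8% ± 2.50 among WT OC libraries and 41.1% ± 11 among WT OB libraries. WT OB ranged from 25.2% to 57.2% and lay wholly above the WT BMM range of 14.8% to 24.7% and the WT OC range of 13.3% to 18.9%. Both differences gave p = 0.00216 (exact two-sided permutation test over libraries, the smallest p that 924 splits allow; 0.00649 adjusted over 6 comparisons). Between genotypes, the share was 55.3% ± 1.93 in null OB against 41.1% in WT OB (exact permutation p = 0.013, adjusted 0.026). Null OB ranged from 53.3% to 58.0%, and 1 of the 6 WT OB libraries, at 57.2%, lay within that range. In OB the upstream transcripts stood at 12.4 ± 5.02 TPM in WT and 48.8 ± 7.87 in null, and the downstream ones at 17.3 ± 4.77 and 39.1 ± 3.75 TPM, and in neither class did the genotypes overlap. In BMM the share was 23.9% ± 5.66 in null (exact permutation p = 0.0974, adjusted 0.117), and in OC 20.8% ± 3.26 (exact permutation p = 0.0368, adjusted 0.0552). Neither passed after adjustment, nor did WT OC against WT BMM (exact permutation p = 0.316). Among the upstream transcripts, Il1rn-205 is 321 bases long and held means of 5.08 TPM in WT OB and 20.2 in null OB. In WT BMM and WT OC it held 0.12 and 0.38 TPM. Its part of the gene's counts was only 1.39% in WT OB and 1.95% in null OB. Taken from TPM, the upstream shares in OB therefore lean on this short transcript.

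**Figure D3:**
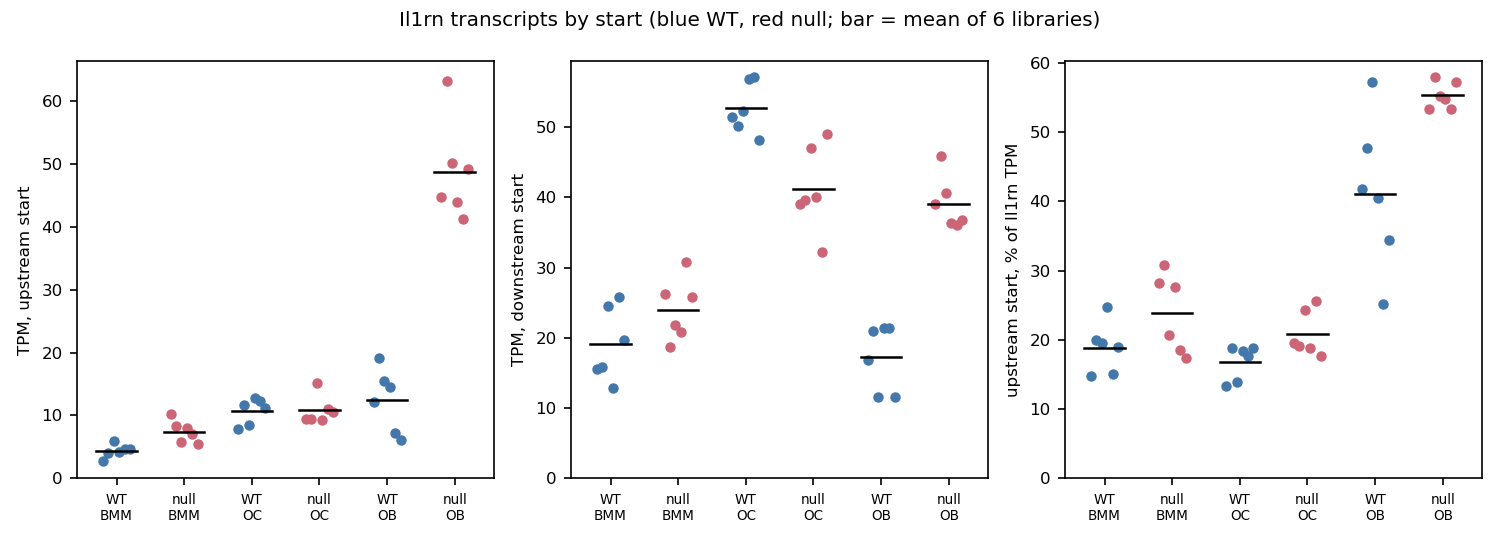
Il1rn TPM from the upstream start (left), from the downstream start (middle) and the upstream share in percent (right) for each library by group (blue WT, red null; black bar, mean of 6). The upstream share is highest in OB, at 41.1% in WT and 55.3% in null, against 16.8% to 23.9% in the other groups.

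Il18, an IL-1 family cytokine that is also matured by caspase-1, went the other way in macrophages. It stood at 7.22 to 9.51 CPM in WT BMM (median 7.83) and 2.34 to 5.88 in null BMM (median 4.15), with no overlap, and fell by 0.95 in log2 units (SE 0.17, edgeR adjusted p = 0.000222). In OC it was 2.52 to 4.02 CPM in WT (median 3.13) and 1.96 to 5.00 in null (median 3.66), with the null libraries on both sides of the WT ones (log2 fold change 0.14, 95% interval -0.29 to 0.57). In OB it was 7.08 to 9.87 CPM in WT (median 8.76) and 4.77 to 7.94 in null (median 6.19). The OB ranges overlapped, and the null was lower, at -0.46 in log2 units (SE 0.15, edgeR adjusted p = 0.0263). This call was lost without any 1 of WT OB replicates 4, 5 and 6 or null OB replicates 1, 4 and 5 (adjusted p 0.0527 to 0.0716). An offset for length and GC content took its log2 fold change to -0.11 (adjusted p = 0.65), and 1 fit of all 36 libraries gave an adjusted p of 0.0551.

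Genes named below from the lists around the members all passed the edgeR test at an adjusted p under 0.05, and log2 fold changes are null over WT. Of 17 further genes of the IL-1 and IL-18 system (receptors, inflammasome and adaptor genes), 14 were tested in BMM, where 5 were higher and 3 lower in the null. In OC 8 of 15 tested were higher and 4 lower, and in OB 1 of 14 was higher and 5 lower. The list's median log2 fold change was 0.03, 0.24 and -0.14 in BMM, OC and OB, where the medians of all genes were 0.02, -0.03 and 0. Irak3, a kinase-like protein that dampens signalling below the IL-1 receptor, rose from 42.0 ± 4.70 to 254 ± 31.2 CPM in BMM and from 19.1 ± 1.26 to 246 ± 23.2 CPM in OC (SD, n = 6). The inhibitory receptor Sigirr was also higher in null BMM (log2 fold change 1.21, SE 0.23), and the inflammasome sensor Nlrp3 was lower in null BMM (-0.62, SE 0.11) and higher in null OC (0.97, SE 0.09). In OC the signalling receptor Il1r1 was lower (-2.34, SE 0.48) and the decoy Il18bp higher (1.34, SE 0.18), which was lower in null BMM (-0.34, SE 0.12). In OB the inflammasome genes Pycard (-0.64, SE 0.07) and Casp1 (-0.57, SE 0.09) and the decoy Il18bp (-0.53, SE 0.10) were lower. By mean CPM, Pycard was higher in null than WT in BMM (108 and 78.7) and in OC (89.9 and 44.9). Casp1 means were also higher in the null, at 90.2 and 83.7 in BMM and 69.8 and 52.8 in OC, with overlapping ranges.

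Tnf, which encodes the cytokine TNF, was higher in both null macrophage cultures. It stood at 8.64 to 10.2 CPM in WT BMM (median 9.04) and 25.6 to 39.4 in null BMM (median 32.3). In OC it stood at 4.21 to 6.08 CPM in WT (median 5.37) and 28.7 to 53.1 in null (median 38.2). In neither culture did the genotypes overlap, and the log2 fold changes were 1.84 (SE 0.11, adjusted p = 8.19e-10) and 2.90 (SE 0.16, adjusted p = 5.79e-11) by edgeR. Of the macrophage markers given above, Adgre1 and Cd14 were higher in null BMM and null OC, and Cd68 was lower in both. Mertk and Fcgr1 were lower in null BMM and higher in null OC. The part of these markers in the Tnf difference was not tested. In OB, Tnf was 1.67 to 4.04 CPM in WT (median 3.46) and 1.28 to 2.98 in null (median 2.22). These ranges overlapped, and the log2 fold change of -0.59 (SE 0.23) gave an adjusted p of 0.0612 with edgeR. Tnf did pass with DESeq2 (adjusted p = 0.0473), in 1 edgeR fit of all 36 libraries (0.021), without WT OB replicate 6 (-0.73, adjusted p = 0.0131) and without null OB replicate 1 (-0.71, adjusted p = 0.0375).

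All 8 further genes of the TNF system were tested. In BMM 5 were higher and 0 lower in the null, and in OC 7 were higher and 1 lower, with list medians of 0.51 and 0.76. The TNF receptor gene Tnfrsf1b rose from 160 ± 7.05 to 325 ± 30.4 CPM in BMM and from 62.4 ± 4.84 to 357 ± 48.6 CPM in OC. The adaptor Traf1 was higher in null BMM (log2 fold change 1.33, SE 0.09) and lower in null OC (-1.56, SE 0.08), and Traf2 was higher in BMM (0.95, SE 0.08). Rhbdf2, which helps the TNF sheddase reach the cell surface, was higher in null OC (1.23, SE 0.12). In OB 0 of the 8 passed the edgeR test, 1 had an unadjusted p under 0.05, and DESeq2 called 0 and limma-voom 1.

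Il6 lay at the edge of detection in every macrophage culture and fell below the count filter of the genotype tests in BMM and OC. WT BMM held 1 count in 6 libraries and WT OC held 0. Null BMM held 28 counts (0 to 0.598 CPM per library, median 0.260) and null OC 40 (0 to 1.09 CPM, median 0.307). The ratio of group counts per TMM-scaled library size was 29.1 in BMM (95% interval 4.82 to 1190), and in OC Il6 was at least 14.5-fold higher, taking 3 counts over the group as the floor. Without the filter, Il6 was called higher in the null in both (edgeR adjusted p = 0.00337 in BMM and 0.000772 in OC), with a fitted size that depends on the prior count. Intervals and floors cover counting error only. One null library of each culture held no Il6 count, so the groups touched. In OB, Il6 stood at 0.196 to 1.15 CPM in WT (median 0.800) and 0.146 to 0.805 in null (median 0.486), with overlapping ranges (log2 fold change -0.59, 95% interval -1.37 to 0.20).

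Il10, which encodes the anti-inflammatory cytokine, was also higher in the null macrophage cultures, by less. It stood at 0.232 to 1.26 CPM in WT BMM (median 0.887) and 1.09 to 2.31 in null BMM (median 1.86). In OC it stood at 0.779 to 1.44 CPM in WT (median 1.14) and 1.48 to 3.85 in null (median 1.96). The ranges overlapped in BMM and not in OC, and the null was higher by 1.11 (SE 0.30) and 1.06 (SE 0.29) on the log2 scale, with edgeR adjusted p of 0.00559 and 0.00455. In BMM, Il10 would not have passed the count filter on the WT libraries alone, so the p-value there adds nothing to the ranges. In OB, Il10 was 0.702 to 1.29 CPM in WT (median 0.939) and 0.429 to 0.845 in null (median 0.577). There the ranges overlapped and the log2 fold change of -0.59 (SE 0.24) gave an adjusted p of 0.0679 by edgeR. It passed without null OB replicate 6 (-0.71, adjusted p = 0.0444) and with limma-voom (-0.69, adjusted p = 0.0342).

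The 8 further genes of IL-6 and IL-10 signalling (receptors, kinases, STAT3 and SOCS3) were all tested. In BMM 2 were higher and 4 lower, in OC 5 higher and 1 lower, and in OB 1 higher and 3 lower, with list medians of -0.18, 0.50 and 0.13. Socs3, the STAT3-induced inhibitor of IL-6 receptor signalling, rose from 5.21 ± 0.629 to 53.8 ± 8.37 CPM in BMM and from 6.17 ± 0.850 to 61.8 ± 13.0 CPM in OC. The IL-6 receptor chains Il6st (-1.09, SE 0.15) and Il6ra (-0.84, SE 0.09) were lower in null BMM, and Il6st was lower in null OC (-0.59, SE 0.11). The IL-10 receptor chain Il10ra was higher in null OC (2.22, SE 0.15) and lower in null OB (-0.67, SE 0.08). In OB, Il10rb was lower (-0.52, SE 0.05) and Stat3 higher (0.33, SE 0.10), the latter not under the offset for length and GC content.

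Ptgs2 showed the largest log2 fold change of the members tested in BMM and in OC. It stood at 0.0580 to 0.677 CPM in WT BMM (median 0.363) and 8.92 to 19.0 in null BMM (median 12.9). In OC it stood at 0.199 to 1.00 CPM in WT (median 0.598) and 12.3 to 30.3 in null (median 14.3). Every null library exceeded every WT library in both cultures. On the log2 scale it rose by 5.23 in BMM (SE 0.32, edgeR adjusted p = 1.4e-09) and by 4.88 in OC (SE 0.32, edgeR adjusted p = 9.74e-10). The WT libraries alone would not have passed the count filter in either culture, so these p-values add nothing to the ranges.

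The osteoblast cultures held far more Ptgs2 than either macrophage culture of either genotype. It stood at 243 to 386 CPM in WT OB (median 271) and 79.4 to 754 in null OB (median 328). The null libraries lay on both sides of the WT ones, and the log2 fold change was 0.34 (95% interval -0.49 to 1.17, adjusted p = 0.585, edgeR). Because Ptgs2 was so abundant in OB, osteoblast transcripts in the other cultures are given beside it. The 7 osteoblast markers summed to 10.2 to 27.5 CPM (WT) and 53.1 to 127 (null) in BMM, and to 12.5 to 15.1 (WT) and 55.5 to 267 (null) in OC. Their part in the Ptgs2 difference was not tested.

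Nos2 followed the same order of cultures at lower levels. WT BMM held 10 counts in 6 libraries (0 to 0.143 CPM, median 0.10) and null BMM 46 (0.0565 to 0.851 CPM, median 0.406), which was below the filter. Without the filter the log2 fold change in BMM was 2.19 (SE 0.64, adjusted p = 0.0105, edgeR). In OC it was 0 to 0.311 CPM in WT (median 0.128) and 1.24 to 3.53 in null (median 1.78), with no overlap, and rose by 3.92 in log2 units (SE 0.47, edgeR adjusted p = 1.46e-06). There Nos2 passed the count filter through the null libraries alone, so the p-value adds nothing to the ranges. In OB, Nos2 was 5.56 to 13.6 CPM in WT (median 8.84) and 0.242 to 14.1 in null (median 4.87), with overlap (log2 fold change -0.55, 95% interval -1.70 to 0.61).

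The null OB libraries spread widely for both enzymes. Replicates 4 and 5 were the highest for each, with Ptgs2 at 547 and 754 CPM and Nos2 at 14.1 and 12.7 CPM. Replicate 6 was the lowest for each, with Ptgs2 at 79.4 CPM and Nos2 at 0.242 CPM. Replicates 1, 2 and 3 lay between, with Ptgs2 at 310, 347 and 196 CPM and Nos2 at 3.66, 5.10 and 4.63 CPM. The SD of Ptgs2 over the 6 libraries was 244 CPM in null OB and 60.6 CPM in WT OB.

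**Figure D4:**
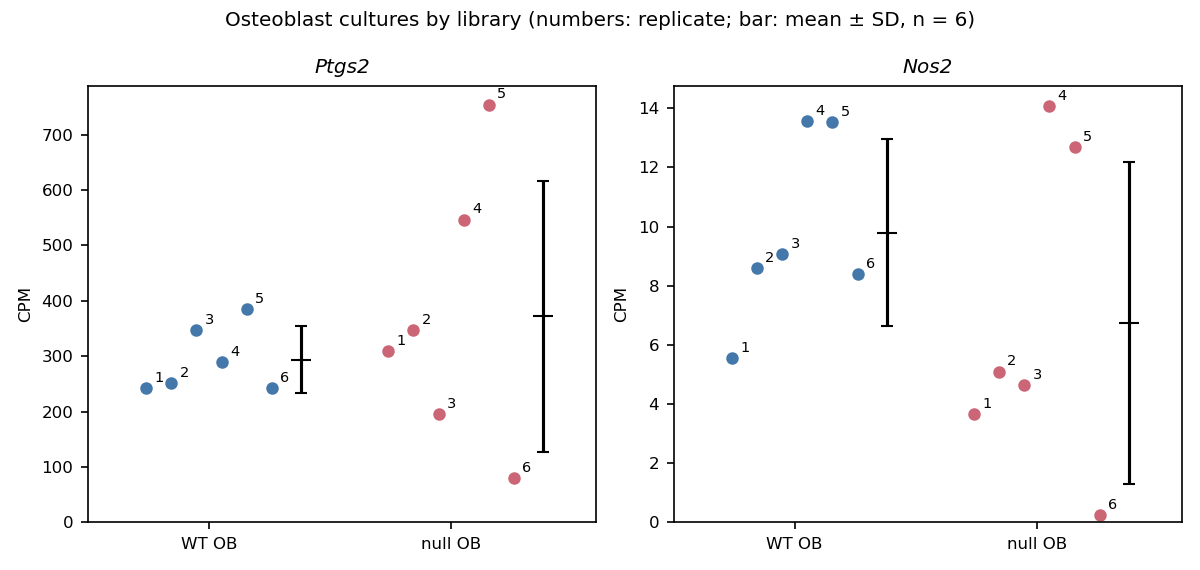
Ptgs2 (left) and Nos2 (right) in CPM on linear axes in each WT and null OB library, numbered by replicate, with mean ± SD (n = 6). Null replicates 4 and 5 are highest and replicate 6 lowest for both genes.

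The prostanoid list held 14 genes from phospholipase to prostaglandin receptors, without Ptgs2. In BMM 6 of 11 tested were higher and 4 lower in the null, and in OC 8 of 11 were higher and 1 lower, with list medians of 0.55 and 0.95 against all-gene medians of 0.02 and -0.03. Ptges, the synthase that turns the COX product into prostaglandin E2, rose from 2.10 ± 0.669 to 41.4 ± 2.54 CPM in BMM (log2 fold change 4.30, SE 0.16). In OC it rose from 2.25 ± 0.663 to 56.4 ± 16.1 CPM (4.66, SE 0.21). The constitutive cyclooxygenase Ptgs1 was higher in null BMM (1.79, SE 0.13). Hpgd, which degrades prostaglandins, fell from 44.7 ± 11 to 5.00 ± 0.684 CPM in BMM (-3.15, SE 0.16), and in OC it was higher in the null (1.55, SE 0.30). The prostaglandin E2 receptors Ptger2 (4.98, SE 0.16) and Ptger4 (1.76, SE 0.13) were higher in null OC. In OB 0 of 12 were higher and 3 lower: Ptger2 (-0.60, SE 0.15), the prostaglandin D synthase Hpgds (-0.58, SE 0.12) and the thromboxane synthase Tbxas1 (-0.45, SE 0.09).

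Of 9 genes of nitric oxide and arginine metabolism, 3 were higher and 2 lower among 7 tested in BMM, and 5 higher and 2 lower among 8 in OC. Ass1, which regenerates arginine from citrulline, rose from 23.5 ± 4.25 to 420 ± 28.1 CPM in BMM and from 49.8 ± 5.64 to 593 ± 70.4 CPM in OC. Arg1, the arginase that competes for the substrate of iNOS, fell from 25.9 ± 10.2 to 3.67 ± 0.839 CPM in BMM. The second arginase, Arg2, was higher in null BMM (1.64, SE 0.38) and null OC (2.87, SE 0.30), as was the arginine transporter Slc7a2 in OC (3.16, SE 0.21). In OB 1 of 9 was higher (Slc7a1, 0.52, SE 0.17) and 1 lower (Ass1, -0.57, SE 0.13). The Slc7a1 call was lost under the replicate block and the length and GC offset, with values down to 0.19. The medians of the tested genes were 0.62 in BMM, 0.67 in OC and 0.02 in OB.

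**Figure D5:**
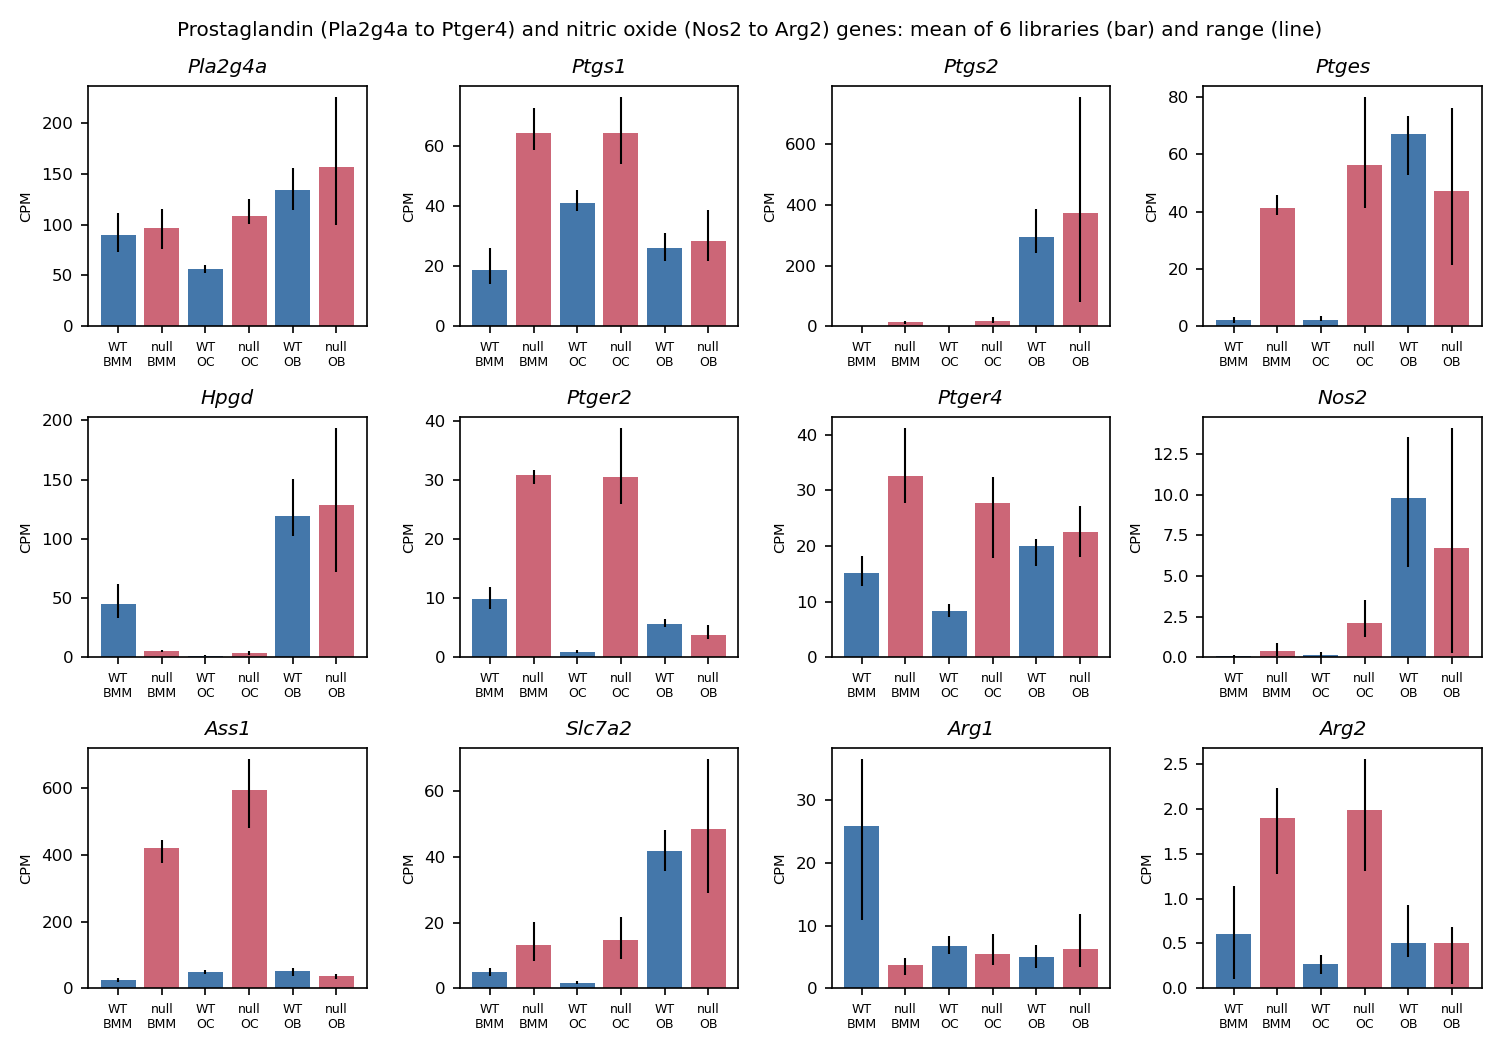
CPM of 7 prostaglandin and 5 nitric oxide genes by group (bar, mean of 6 libraries; line, lowest to highest; blue WT, red null; linear axes from 0). Ass1 is highest in null BMM and null OC and Arg1 in WT BMM. Ptges is higher in null than WT BMM and OC and highest by mean in WT OB, and Ptgs2 and Hpgd are highest in the OB cultures.

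For the stability of cytokine mRNA 8 regulators were tested in each culture. In BMM 5 were higher and 2 lower, in OC 4 higher and 2 lower, and in OB 2 higher and 0 lower, with medians of 0.41, 0.18 and 0.18. Zc3h12a (Regnase-1), a nuclease that cleaves Il6 and other cytokine mRNAs, was higher in null BMM (1.64, SE 0.09) and null OC (1.73, SE 0.10). Zfp36 (tristetraprolin), which promotes decay of Tnf mRNA, was lower in both (-0.69, SE 0.10 and -0.96, SE 0.11). Of its relatives, Zfp36l1 was lower in null BMM (-1.26, SE 0.10) and Zfp36l2 higher in null OC (1.11, SE 0.20). In OB, Rc3h1 (0.55, SE 0.14) and Khsrp (0.25, SE 0.09) were higher. Neither passed under the length and GC offset, and Khsrp also did not pass without the filter, with limma-voom or under the replicate block (values down to 0.07).

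Between WT OC and WT BMM 4 of 8 tested members differed, 1 higher and 3 lower in OC. Of 12661 genes, 60.5% were called, 30.4% higher and 30.1% lower. The WT OC libraries also held the osteoclast profile, as given above, and its part in these differences was not tested. Il1rn was higher in WT OC than in WT BMM (log2 fold change 1.3, SE 0.13), and Il1a (-1.12, SE 0.39), Il18 (-1.31, SE 0.20) and Tnf (-0.86, SE 0.14) were lower. In null cells 3 members were called, all higher, where 12.9% of genes were called, 6.78% higher and 6.07% lower. They were Il1a (1.09, SE 0.29), Il1rn (0.71, SE 0.13) and Nos2 (2.31, SE 0.44). The Il1a call did not pass with limma-voom (0.73, adjusted p = 0.0836).

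The response to RANK-L differed between genotypes for 4 of the 8, where 51.4% of genes were called, 25.3% higher and 26.1% lower. The difference, null response minus WT response on the log2 scale, was 2.20 for Il1a (SE 0.49, adjusted p = 0.000403), 1.11 for Il18 (SE 0.28, adjusted p = 0.00151) and 1.07 for Tnf (SE 0.19, adjusted p = 2.49e-05). It was -0.59 for Il1rn (SE 0.18, adjusted p = 0.00888), all by edgeR. For Il1b, Il10, Ptgs2 and Nos2 it did not pass, at -0.36 (95% interval -1.92 to 1.2), -0.04 (-0.84 to 0.77), -0.34 (-1.35 to 0.66) and 1.74 (0.02 to 3.46). For Nos2 it passed with limma-voom (2.03, adjusted p = 0.0411) and on leaving out null BMM replicate 1 (2.09, adjusted p = 0.0465) or WT OC replicate 3 (2.22, adjusted p = 0.0417). The osteoclast markers differed between WT and null OC as given above, as did the sum of the neutrophil markers. The 10 neutrophil markers summed to 6.29 to 7.61 CPM in WT OC and 53.6 to 94.6 in null OC, and to 32.3 to 51.4 in WT BMM and 89.1 to 113 in null BMM. Csf3r, with means of 2.35 CPM in WT and 68.7 in null OC and 42.1 and 88.0 in BMM, carried most of the sum, and S100a8 stood at 0.118 and 6.89 in OC and 0.163 and 10.8 in BMM. Cxcr2 was lower in null OC (4.47 and 2.87 CPM). Elane and Retnlg were at 0 in all 4 groups, and Ly6g, S100a9, Mpo and Ltf had means of at most 0.0722 CPM. The part of these markers in the members' differences was not tested.

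Between cell types, osteoblast cultures stood apart by their enzymes. In WT, 5 of 9 members differed between OB and BMM, 4 higher and 1 lower in OB, where 76.8% of 14268 genes were called, 41.5% higher and 35.3% lower. Against OC 8 of 9 differed, 6 higher and 2 lower, where 77.9% were called, 41.3% higher and 36.7% lower. Ptgs2 was higher in WT OB by 9.66 (SE 0.52) over BMM and 9.0 (SE 0.49) over OC on the log2 scale, and Nos2 by 6.71 (SE 0.68) and 6.13 (SE 0.63). Il1b was higher by 3.05 (SE 0.62) and 2.49 (SE 0.57), and Il6 stood at 87.1 times the WT BMM level (95% interval 15.2 to 3480) and at least 30.2-fold above WT OC. Tnf was lower in OB (-1.53, SE 0.17 and -0.67, SE 0.18). Il1rn was lower in OB than in OC (-1.14, SE 0.14), and Il1a (1.10, SE 0.40) and Il18 (1.42, SE 0.19) were higher than in OC. Against BMM, Il1a, Il1rn, Il10 and Il18 did not pass, with log2 differences between -0.01 and 0.16.

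The genotype difference was itself compared between cultures. Between OB and OC it differed for 8 of 9 members, 1 higher and 7 lower in OB, where 55.2% of genes were called, 27.8% higher and 27.4% lower. Between OB and BMM it also differed for 8 of 9, 1 higher and 7 lower, where 45.9% were called, 21.6% higher and 24.3% lower. The member with the larger difference in OB was Il1rn in both, by 1.32 (SE 0.20) over OC and 0.72 (SE 0.20) over BMM. Ptgs2 differed by -4.52 (SE 0.60) and -4.87 (SE 0.66), and Tnf by -3.47 (SE 0.25) and -2.41 (SE 0.25). Il18 passed in neither, at -0.59 (SE 0.26, adjusted p = 0.0538) and 0.51 (SE 0.25, adjusted p = 0.101) by edgeR. The Il18 difference between OB and OC passed under 7 of 8 other settings, with limma-voom at adjusted p = 0.0321 among them. That between OB and BMM passed with the length and GC offset (1.05, adjusted p = 0.000659), with limma-voom (0.56, adjusted p = 0.0418) and without null BMM replicate 3 (0.64, adjusted p = 0.0383).

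Levels of different genes were set side by side only per length, as TPM. In WT BMM, Il1rn (23.4 ± 5.99 TPM) and Il18 (22.3 ± 2.48) were the most abundant members, followed by Tnf (9.10 ± 0.811) and Il10 (1.07 ± 0.410). In null BMM, Il1rn (31.4 ± 4.65) and Tnf (29.2 ± 3.57) led, Il18 stood at 10.3 ± 2.44, and Ptgs2 (4.12 ± 1.53), Il1b (2.24 ± 0.561), Il10 (2.12 ± 0.597) and Il1a (1.54 ± 0.324) followed. In WT OB, Ptgs2 (101 ± 20.3 TPM) led, before Il1rn (29.7 ± 7.77) and Il18 (24.6 ± 3.04). In null OB, Ptgs2 was at 143 ± 93.9 TPM and Il1rn at 87.9 ± 11.4. The antagonist Il1rn thus stood above both of its ligands in every group by mean TPM, with Il1a and Il1b at 3.36 ± 1.75 and 2.47 ± 0.886 TPM beside 51.9 ± 7.27 in null OC, where they were highest.

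By mean CPM the order of groups was the same at the top for Il1a, Il1b, Il10 and Tnf, with null OC first and null BMM next, and these neighbours overlapped for all 4 genes. For Ptgs2 and Nos2 the OB groups came first, then null OC, null BMM, WT OC and WT BMM. The Ptgs2 ranges of both OB groups lay above all others, while for Nos2 null OB overlapped null OC. Il18 ran from WT OB through WT BMM, null OB and null BMM to null OC and WT OC, each overlapping the next. Il1rn ran from null OB through null OC and WT OC, which overlapped, to null BMM, which stood apart from its neighbours, and then WT OB and WT BMM. Il6 ran from WT OB through null OB, null OC and null BMM to WT BMM and WT OC, each touching or overlapping the next.

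Genes with the most similar pattern over the 6 group means were found for the 8 members that reached 1 CPM in some group. Likeness was the root mean square difference between centred log2 CPM profiles, over 13533 genes, and a smaller value means a closer match. Nearest were Il12b (0.23) and F2rl2 (0.29) to Il1a, Gm7535 (0.25) and Cxcl1 (0.26) to Il1b, and Midn (0.30) and Fut4 (0.31) to Il1rn. For Il10 they were Sla2 (0.07) and Rab5if (0.14), for Il18 Bmyc (0.11) and Irgm1 (0.15), and for Tnf Adgre1 (0.11) and Ebi3 (0.22). For Ptgs2 they were Tm4sf1 (0.28) and Cyp1b1 (0.50), and for Nos2, with the poorest match, Rab33a (0.65) and Prss50 (0.69). With 6 points a profile, many genes can lie this close.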

How the data were processed

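Per the file headers, the authors deposited, for each of the 36 libraries, estimated counts and TPM for 88198 transcripts in the format that kallisto writes. The submitters' processing notes name kallisto and DESeq2 without versions and the build GRCh38, although the transcripts are mouse Ensembl identifiers. Versions and strand setting are not given in the sources used here. Of the transcripts, 97.5% matched GENCODE M21 (GRCm38); the rest held 0.63% to 0.97% of counts and were left out. Counts were summed per gene, rounded and tested with edgeR 4.0.16 in R 4.3.3 (TMM scaling, filterByExpr, robust quasi-likelihood fit) over all genes of each fit. Genotype comparisons used the 12 libraries of 1 culture, RANK-L comparisons 24 and comparisons with OB 36. The results were recomputed with DESeq2 1.42.0 and limma-voom (limma 3.58.1), with RLE scaling, without the filter or with a minimum mean of 10 counts, with a replicate block, with offsets for effective length and for length and GC, in 1 fit of all libraries, and leaving out each library. Chi-square statistics found no 2 libraries alike within sampling noise (at least 3.46 per gene). The tests were checked on simulated data.

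The members and gene lists were chosen with earlier results of these data known. Named were all members and, per list and genotype comparison, the 3 called genes with the largest absolute log2 fold change and a mean of at least 1 CPM. The prior count for log2 CPM profiles was 2. The genotype labels were not checked, as Mir324 itself was not analysed here.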

Additional observations from a re-analysis of the deposited data

Results flagged for a closer look

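One of 47 groups of values tested held a library far from the rest: Ptgs2 in null OC replicate 3 stood at 30.3 CPM, against a median of 14.3 CPM in its group. Chance alone flags about 1 in 20 such groups.

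The other flagged results are differences in effect between cultures or genotypes that passed the test of the difference itself (edgeR, log2 scale). The response to RANK-L, null minus WT, differed by 2.20 for Il1a, 1.11 for Il18, 1.07 for Tnf and -0.59 for Il1rn. The genotype difference in OB minus that in OC was 1.32 for Il1rn and negative for Il1a (-4.14), Il1b (-4.24), Il6 (-6.44), Il10 (-1.64), Tnf (-3.47), Ptgs2 (-4.52) and Nos2 (-4.45). In OB minus BMM it was 0.72 for Il1rn and negative for Il1a (-1.95), Il1b (-4.61), Il6 (-4.66), Il10 (-1.69), Tnf (-2.41), Ptgs2 (-4.87) and Nos2 (-2.72). The fitted Il6 values rest on groups with 0 or 1 count and depend on the prior count, so they give a direction and no size. The Nos2 difference between OB and BMM did not pass with limma-voom (-3.06, adjusted p = 0.0573) or without null BMM replicate 1 (-2.36, adjusted p = 0.0639).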

How the results depend on the processing

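Of 2849 recomputed log2 fold changes of members, 2766 kept direction and side of the threshold, 12 lost the call, 38 gained it and 33 changed sign. Counts of members called, levels and the Il1rn starts are not among these. The count of members called between genotypes in OB fell from 2 to 1 under the replicate block and the length and GC offset, and ran from 1 to 3 with 1 library left out. The counts of the other 9 comparisons stayed within 1.5 times. Sign changes touched only values that had not passed: Il1rn in OC (-0.04 with limma-voom, -0.07 with the effective-length offset), Ptgs2 in OB (-0.02 with limma-voom) and, with the length and GC offset, Il18 in null OC against BMM (0.15), the genotype difference of Il10 in it (0.18) and, in WT OB against BMM, Il10 (-0.04) and Il18 (-0.35). Il1a in WT OB against BMM changed sign with RLE scaling and DESeq2 (0.06), limma-voom (0.02) and the block (0.02). With 1 library left out, values that had not passed also changed sign, over ranges of -0.04 to 0.11 for Il1rn in OC, -0.3 to 0.05 for Il1a and -0.03 to 0.39 for Il1b in OB, -0.22 to 0.13 for Il1a and -0.06 to 0.28 for Il10 in WT OB against BMM, and, for the genotype difference in the RANK-L response, -1.21 to 0 for Il1b and -0.22 to 0.15 for Il10. The cause was not tested.

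Replicate numbers did not pair the libraries: same-numbered libraries correlated between -0.17 and 0.12 in their deviations, and no comparison had every pair above 0.1. Under the replicate block Il18 in OB stood at -0.48 (adjusted p = 0.0509). The genotype difference in the upstream Il1rn share in OB kept an unadjusted exact permutation p under 0.05 without any 1 library and on counts. These recomputed p-values were not adjusted over the comparisons, unlike the adjusted p given with the shares above. At this depth, with 3 counts taken as the detection floor, differences in Il6 within macrophage cultures rest on few counts.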
